A study of Mus musculus with 11 samples.

Results

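The nuclear-encoded subunits of the mitochondrial respiratory chain and ATP synthase were examined in the left ventricle of naive mice and of mice 9 days after myocardial infarction (MI). Members were the protein-coding genes whose symbol belonged to the Nduf a, b, c, s or v series, Ndufab1, Sdha to Sdhd, the Uqcr genes, the Cox4 to Cox8 genes or the Atp5 genes, together with Cyc1 and Cycs. The rule used gene names and no measured value. It found 85 members among the 25006 genes counted. They comprised 36 genes of complex I, 4 of complex II, 9 of complex III, 18 of complex IV, 17 of complex V and Cycs, which encodes the mobile carrier cytochrome c. Ndufa4 carries a complex I name but was counted with complex IV, where its protein is known to reside. The other members were assigned by symbol alone, so Atp5s, which RefSeq lists as Dmac2l, was counted with complex V.

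Stranded mRNA libraries were made from 11 mice, 1 library per mouse. MI was produced by permanent ligation of the left anterior descending coronary artery, and infarcted left ventricle was taken; naive mice, which were not ligated, gave a matching piece of ventricle. There were 2 naive control mice, 3 naive Vegfc-deficient mice (Vegfc fl/fl LysMCre), 3 control mice after MI and 3 Vegfc-deficient mice after MI. LysMCre drives Cre recombinase from the Lyz2 locus in myeloid cells, so Vegfc should remain intact in cardiomyocytes, and the Cre line can also be active in neutrophils. The genotype field of the labels gives the controls as Vegfc fl/fl, whereas the protocol text names LysMCre mice, so what the controls carried is uncertain. Ages of the mice are not given in the sources used here.

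The respiratory chain passes electrons from NADH (complex I) and succinate (complex II) through complex III and cytochrome c to oxygen (complex IV), and ATP synthase (complex V) uses the proton gradient so formed. Nearly all subunits are encoded in the nucleus, translated in the cytosol and imported, while a small core is encoded by mitochondrial DNA. The adult heart is among the tissues richest in these complexes, and several complex IV subunits exist as a heart and skeletal muscle isoform beside a ubiquitous one.

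Promoters of these genes are known to hold sites for nuclear respiratory factor 1 (NRF1), GABPA, YY1 and the oestrogen-related receptors (ERR). RefSeq promoter windows of the GRCm38.p6 build, 250 bases before to 50 bases after the transcription start, were matched to 69 of the 85 members, 2 of them through an older symbol. Both strands were searched for the letters GCGCANGCG (NRF1), CCGGAAG (GABPA), AAGATGGCG (YY1) and TCAAGGTCA (ERR). The NRF1 letters stood in the windows of 21 of 69 members (30.4%) against 7.03% of 27025 genes. The GABPA letters stood in 16 members (23.2%) against 9.93%, the YY1 letters in 7 (10.1%) against 1.64%, and the ERR letters in 2 (2.9%) against 0.466%. A motif of the MEF2 factors, searched as well, stood in 0 of 69 members against 3.7% of 27025 genes. A match describes the letters in the window and is not evidence of binding. The 27025 genes were not matched to the members in base composition, and its part in these shares was not tested. The 250 bases before the start of 5 members, 5′ to 3′ on the gene's strand, are printed here with motif letters in capitals. Sdhd and Atp5g3 hold matches and fell with MI like most members. Cox6a1 holds 3 NRF1 matches, of which 2 overlap on opposite strands, and a GABPA match, and had a smaller change. Cox7a1 and Cox8b, muscle isoforms with larger changes than most members, hold none of these letters in the stretch. G and C made up 64.4% of the stretch in Sdhd, 54.0% in Atp5g3, 62.8% in Cox6a1, 51.2% in Cox7a1 and 47.2% in Cox8b. The whole windows of 33 of the 69 members held none of the 4 sets of letters, among them Cox7a2, the ubiquitous partner of Cox7a1.
Sdhd, chr9:50603850-50604099, minus strand: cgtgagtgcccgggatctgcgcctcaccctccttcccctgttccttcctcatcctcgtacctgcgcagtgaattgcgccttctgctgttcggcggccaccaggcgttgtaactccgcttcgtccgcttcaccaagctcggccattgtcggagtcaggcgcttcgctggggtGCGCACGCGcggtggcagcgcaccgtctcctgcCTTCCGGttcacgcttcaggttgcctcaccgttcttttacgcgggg
Atp5g3, chr2:73911327-73911576, minus strand: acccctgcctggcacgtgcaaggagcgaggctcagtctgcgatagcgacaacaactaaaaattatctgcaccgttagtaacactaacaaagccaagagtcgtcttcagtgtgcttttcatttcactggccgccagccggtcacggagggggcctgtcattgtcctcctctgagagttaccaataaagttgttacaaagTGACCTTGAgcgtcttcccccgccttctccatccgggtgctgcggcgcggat
Cox6a1, chr5:115348959-115349208, minus strand: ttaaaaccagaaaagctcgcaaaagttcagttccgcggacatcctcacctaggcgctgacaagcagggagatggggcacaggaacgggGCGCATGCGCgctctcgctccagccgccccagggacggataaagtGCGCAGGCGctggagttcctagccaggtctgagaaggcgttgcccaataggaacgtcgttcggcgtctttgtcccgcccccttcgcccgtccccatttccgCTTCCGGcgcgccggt
Cox7a1, chr7:30183921-30184170, plus strand: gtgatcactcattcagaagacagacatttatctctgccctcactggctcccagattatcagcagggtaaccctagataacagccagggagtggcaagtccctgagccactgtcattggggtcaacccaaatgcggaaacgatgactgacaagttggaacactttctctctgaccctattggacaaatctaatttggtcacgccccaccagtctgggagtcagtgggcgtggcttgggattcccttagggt
Cox8b, chr7:140900447-140900696, minus strand: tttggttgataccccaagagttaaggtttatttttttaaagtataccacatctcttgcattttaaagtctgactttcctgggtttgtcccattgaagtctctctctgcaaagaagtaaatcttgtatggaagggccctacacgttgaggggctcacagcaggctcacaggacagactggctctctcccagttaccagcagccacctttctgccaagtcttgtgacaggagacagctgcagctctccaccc

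In Sdhd the NRF1 letters lie 79 to 71 bases and the GABPA letters 46 to 40 bases before the start. In Atp5g3 the ERR letters lie 52 to 44 bases before the start. With MI in control mice, the median log2 fold change was -2.42 for members with the NRF1 letters and -2.39 for those without them (not tested). Of the 13 complex IV members with a window, 1 held the NRF1 letters, beside 7 of 15 in complex V. For the GABPA letters the medians were -2.15 with and -2.48 without.

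Total counts ranged from 10824989 to 14585642 in the naive libraries and from 14580756 to 26782728 in the MI libraries. Levels are given as CPM, a library's counts rescaled to a common total, further scaled by the trimmed mean of M-values (TMM), in which 3 counts, the floor used here, equal 0.101 to 0.363 CPM. Whole-tissue Vegfc was at 21.9 to 45.5 CPM in the controls and at 22.4 to 34.5 CPM in the Vegfc-deficient libraries and did not separate the genotypes. Lyz2, the locus of the Cre insertion, was at 2121 to 5380 CPM in the controls and at 12.4 to 1392 CPM in 5 of the 6 Vegfc-deficient libraries, whereas M149, a library labelled naive Vegfc-deficient, had 4565 CPM. The members' medians in comparisons that use this library are therefore also given without it. Leaving it out changed no direction and no call among the named members' changes with MI in Vegfc-deficient mice, nor the side of 0.05 on which the exact permutation p of any of the 7 isoform ratios fell. Xist ranged from 188 to 403 CPM after MI and from 0.624 to 11.8 CPM in naive hearts, while 4 Y-linked genes summed to 152 to 195 CPM in the naive libraries and to at most 1.84 CPM after MI, so sex and MI cannot be told apart in any comparison of MI with naive hearts. The 12 contractile genes of cardiomyocytes were detected in every group, while summed lung markers stayed at or under 2.16 CPM. All 13 protein-coding genes of mitochondrial DNA had 0 counts in every library, so the subunits encoded there were not analysed here.

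The naive ventricle devoted a large share of its mRNA to these genes. The 85 members took 9.54% to 11.2% of all counts in the 5 naive libraries. Levels of different genes were compared per kilobase of the annotated transcript chosen for each gene, so they depend on that choice. Cox8b, the muscle isoform of a small complex IV subunit, stood first at 7440 ± 872 CPM per kb (SD, n = 5), followed by Ndufa4 at 6961 ± 1330, Cox7a1 at 6728 ± 713 and Cox6a2 at 5554 ± 556 CPM per kb. The first 3 did not differ beyond their spread. Uqcrh of complex III (5170 ± 737) and Cox4i1 (5004 ± 709) came next, so 5 of the 6 most abundant members belonged to complex IV. The catalytic ATP synthase subunit Atp5b was at 4111 ± 541 CPM per kb. The flavoprotein of complex II, Sdha, was at 494 ± 69.3, and Ndufs1, the largest iron-sulfur subunit of complex I, was at 291 ± 34.8 CPM per kb.

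The lowest members were Cycs (11.6 ± 2.32 CPM per kb), Atp5l (7.999 ± 0.518), Cox6b2 (6.24 ± 2.18), Cox7b2 (2.25 ± 1.39) and Atp5g2 (1.25 ± 0.504), and Cox8c was at 0 counts in all 11 libraries. Some members share sequence with other annotated genes, and reads that fit several places may go uncounted. Of the 50-base stretches of the Atp5g2 transcript, 87.4% occurred in another annotated gene, and the shares were 84.8% for Atp5l and 53.0% for Cox7c. The levels of these 3 members are uncertain for this reason. Cycs shared 28.5% of its stretches, so its low level carries the same limit, and 16 members shared over 25%. The transcript used for Cycs was also long, at 3123 bases beside a median of 809 over the members, which lowers its level per kilobase. No stretch was shared in 38 members, and under 10% were shared in 55.

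After MI the subunit genes of every complex were lower. Summed over the members, the level was 110639 and 124794 CPM in the naive controls and 24329 (M006), 27691 (M38) and 12041 CPM (M40) in the MI controls. Vegfc-deficient mice had 109918 (M149), 146392 (M150) and 126152 CPM (M34) without MI, and 28418 (M35), 12463 (M900) and 20278 CPM (M913) with it. Every MI library lay below every naive library, and M40 and M900 were the lowest. As a share of counts the members took 1.44% to 3.32% in the MI hearts.

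**Figure D1:**
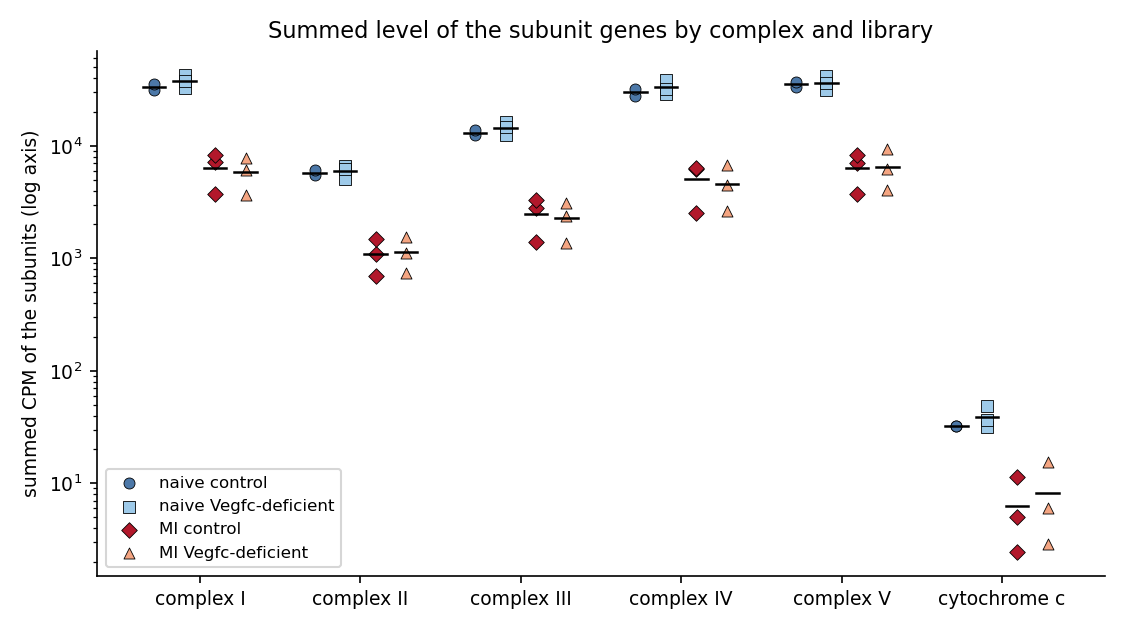
Summed TMM-scaled CPM of the subunit genes (log axis) for complexes I to V and cytochrome c, with 1 point per library and a bar at the mean of each of the 4 groups. For each complex and for cytochrome c, all 6 MI libraries lie below all 5 naive libraries, and the genotypes overlap within each condition.

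Differences were tested by edgeR's quasi-likelihood method, and p-values were adjusted (Benjamini-Hochberg) over 14779 genes, and a gene was called at an adjusted p under 0.05. In control mice 80 of the 84 tested members fell with MI and 0 rose, where 24.1% of all genes tested fell. The median log2 fold change of the members was -2.40, a 5.30-fold lower level, beside 0.13 over all genes. In Vegfc-deficient mice 81 of 84 fell and 0 rose, where 27.7% of all genes fell. The members' median there was -2.64, a 6.22-fold lower level, beside 0.10 over all genes. Short genes in general also fell, but by less. Of 951 tested genes under 1000 bases, 617 were lower in control mice (median -0.46) and 746 in Vegfc-deficient mice (median -1.02). The 50 tested members under 1000 bases had medians of -2.25 and -2.67. A fit that took the length trend out of each library gave member medians of -1.99 and -1.83. The MI libraries lay wholly below the naive ones for 81 members in control mice (33.0% of all genes) and for 82 in Vegfc-deficient mice (30.7%). Of the members called, the highest adjusted p was 0.013 in control mice and 0.0091 in Vegfc-deficient mice.

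The complexes moved by similar amounts. In control mice the median log2 fold change was -2.41 for complex I, -2.34 for complex II, -2.47 for complex III, -2.41 for complex IV and -2.40 for complex V. In Vegfc-deficient mice it was -2.61, -2.22, -2.77, -2.74 and -2.65 in the same order. These sizes depended on the processing. With the length trend removed, the median of complex IV in control mice was -1.76. In Vegfc-deficient mice the medians were then -1.85 for complex I, -1.88 for complex III, -1.60 for complex IV and -1.74 for complex V. All 36 tested genes of complex I, all 4 of complex II and all 9 of complex III were called lower in each genotype. The exceptions belonged to complex IV (15 of 17 called lower in control and 16 of 17 in Vegfc-deficient mice) and complex V (15 of 17 in each). Without M149, labelled as naive Vegfc-deficient, 81 members were called lower in Vegfc-deficient mice, with a median of -2.72. Complex IV made up 25.1% to 26.4% of the members' summed CPM in the naive hearts and 20.9% to 25.4% after MI, with only M006 inside the naive range. Complex V made up 28.3% to 30.3% before and 29.1% to 32.7% after MI, and the ranges overlapped in control mice, whereas all 3 MI libraries were above the naive ones in Vegfc-deficient mice.

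**Figure D2:**
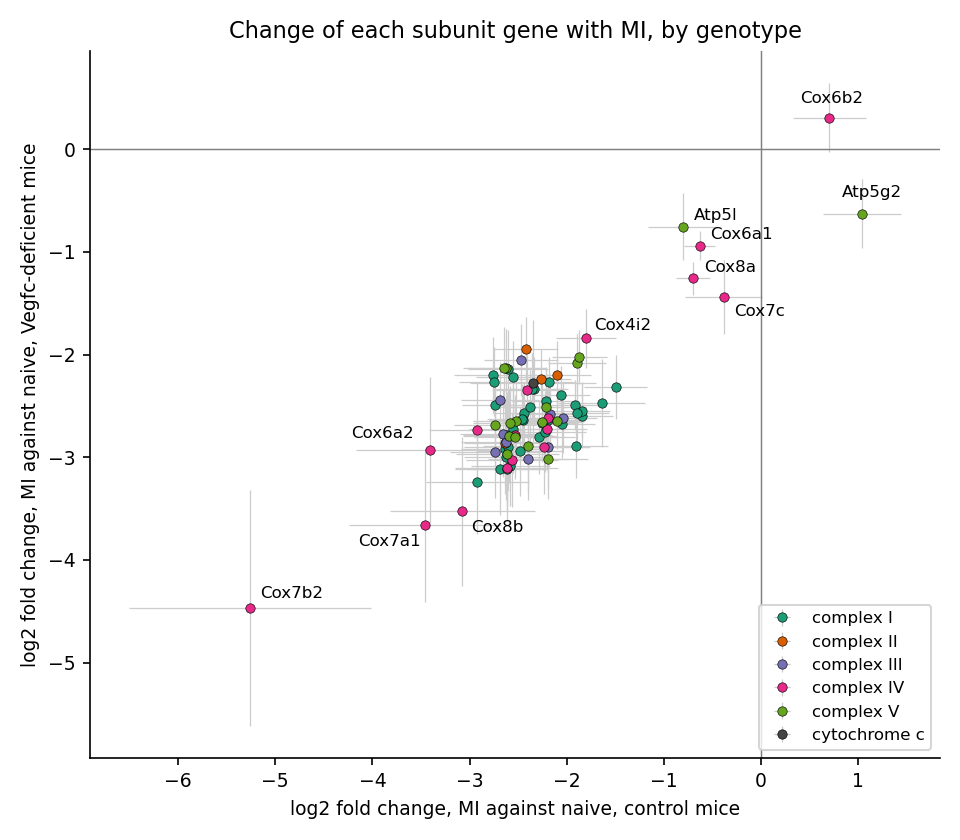
Log2 fold change of each of the 84 tested members with MI in control mice (horizontal axis) and in Vegfc-deficient mice (vertical axis), coloured by complex, with standard errors as grey lines. Most members lie in 1 cluster, while the muscle isoforms Cox6a2, Cox7a1 and Cox8b lie toward its lower left, Cox7b2 lies lowest on both axes (-5.26 and -4.47), and Cox6a1, Cox8a, Cox7c, Atp5l, Atp5g2 and Cox6b2 lie nearer to or above 0.

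The core catalytic and electron-carrying subunits all fell. Sdha was at 1485 and 1639 CPM in naive controls and at 288, 380 and 206 CPM in the MI controls. It was at 1098, 1495 and 1448 CPM in naive and at 496, 242 and 309 CPM in MI Vegfc-deficient mice. The groups did not overlap, and the log2 fold changes were -2.42 (SE 0.34, adjusted p = 0.00048) and -1.95 (SE 0.31, adjusted p = 0.00053). Atp5b, which holds the catalytic sites of ATP synthase, was at 8249 and 8883 CPM in naive controls and at 1431, 1853 and 835 CPM in MI controls. In Vegfc-deficient mice it was at 6213, 8428 and 7614 CPM before and at 2434, 1078 and 1583 CPM after MI. Its partner Atp5a1 fell too, with log2 fold changes of -2.62 and -2.14 in control and Vegfc-deficient mice.

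Other core subunits are given with their log2 fold changes in control and then in Vegfc-deficient mice. In complex I these were -2.61 and -2.14 for Ndufv1, which binds the flavin that accepts electrons from NADH, and -2.55 and -2.22 for Ndufs1. In complex III they were -2.68 and -2.44 for the core protein Uqcrc1, -2.62 and -2.85 for the Rieske iron-sulfur protein Uqcrfs1, and -2.65 and -2.77 for cytochrome c1 (Cyc1). They were -2.63 and -2.86 for Sdhb, the iron-sulfur subunit of complex II, and -2.92 and -2.74 for Cox5a of complex IV. All of these passed the test in both genotypes, and for none of them did an MI library reach the level of a naive library of the same genotype.

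Cytochrome c itself had low counts, and 28.5% of the 50-base stretches of Cycs occurred in other annotated genes. Cycs was at 32.02 and 32.4 CPM in naive controls and at 5.01, 11.4 and 2.46 CPM in MI controls, and at 31.8, 48.8 and 36.1 CPM before and 15.4, 2.89 and 6.09 CPM after MI in Vegfc-deficient mice. The log2 fold changes were -2.35 (SE 0.65, adjusted p = 0.013) and -2.27 (SE 0.61, adjusted p = 0.0091). Without either naive control library the call in control mice was lost (adjusted p = 0.0502 without M44 and 0.0539 without M45). Each of these fits leaves 1 naive control library, assumed to vary like the other groups, as do the other fits without M45.

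In complex I the changes in control mice ran from -2.92 for Ndufa5 to -1.50 for Ndufc2, 2 accessory subunits. In complex II they ran from -2.63 for Sdhb to -2.10 for the membrane anchor Sdhd. In complex III they ran from -2.74 for Uqcrb to -2.04 for Uqcrh, and in complex V Atp5o, of the peripheral stalk, fell most (-2.74). Ndufa4, among the most abundant members of the naive heart per kilobase, fell in control (-2.62) and Vegfc-deficient mice (-3.11). After MI the order of levels changed, with Uqcrh, Cox4i1 and Ndufa4 first at 1011 ± 330, 942 ± 317 and 935 ± 448 CPM per kb (SD, n = 6), which did not differ beyond their spread, and Cox8b at rank 7 with 743 ± 449.

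The members not called were low or shared sequence. Atp5l changed by -0.80 (adjusted p = 0.086) and -0.75 (adjusted p = 0.069). Cox7c changed by -0.38 in control mice (adjusted p = 0.443) and fell by 1.44 in Vegfc-deficient mice (adjusted p = 0.0063), a call lost with the length trend removed (-0.20, adjusted p = 0.630). Cox6b2, known as the testis isoform of its subunit, had 19 to 61 counts in naive and 61 to 235 counts in MI libraries, with log2 fold changes of 0.70 (adjusted p = 0.143) and 0.31 (adjusted p = 0.457). Atp5g2 had 5 to 12 counts in the naive and 14 to 34 in the MI libraries, and is described under the genotype comparison. Cox7b2, another testis isoform, had 61 counts over the 5 naive libraries and 5 counts over the 6 MI libraries. It was called lower in each genotype, but its naive libraries ranged from 1 to 19 counts, in Vegfc-deficient mice the groups overlapped and limma-voom made no call (-2.71, adjusted p = 0.088), and without M45 the call in control mice was lost (adjusted p = 0.051).

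Paired isoforms of complex IV moved by different amounts. Cox6a2, Cox7a1 and Cox8b are the heart and skeletal muscle isoforms of subunits whose ubiquitous forms are Cox6a1, Cox7a2 and Cox8a. Cox6a2 lies on chromosome 7 of GRCm38 from 128205435 to 128206387, Cox7a1 on chromosome 7 from 30184144 to 30186078 and Cox8b on chromosome 7 from 140898945 to 140900446. The muscle isoforms showed larger decreases than the ubiquitous ones.

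Cox6a2 was at 3573 and 4253 CPM in naive controls, 482, 548 and 75.9 CPM in MI controls, 3259, 3953 and 3845 CPM in naive Vegfc-deficient and 792, 161 and 495 CPM in MI Vegfc-deficient hearts. Its partner Cox6a1 was at 295 and 328, at 198, 209 and 196, at 299, 323 and 292 and at 137, 156 and 183 CPM in the same groups. Each isoform was lower in all MI libraries, but the distance between naive and MI hearts was many times greater for Cox6a2. Its log2 fold changes were -3.41 (SE 0.76, adjusted p = 0.0045) and -2.93 (SE 0.71, adjusted p = 0.0054), beside -0.63 (SE 0.16, adjusted p = 0.0072) and -0.94 (SE 0.14, adjusted p = 0.00038) for Cox6a1. The calls of Cox6a1 depended on the scaling: with library totals alone it changed by -0.19 in control mice (adjusted p = 0.287), and with the trend on transcript length removed by 0.073 and 0.31 (adjusted p = 0.713 and 0.080).

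Cox8b was at 2225 and 2618 CPM in naive controls, 404, 405 and 54.9 CPM in MI controls, 2633, 3075 and 2840 CPM in naive Vegfc-deficient and 392, 88.0 and 261 CPM in MI Vegfc-deficient hearts. Cox8a was at 305 and 328, at 194, 209 and 182, at 317, 356 and 342 and at 137, 116 and 172 CPM. The log2 fold changes were -3.07 and -3.53 for Cox8b and -0.70 and -1.26 for Cox8a, all 4 past the threshold. With library totals alone the call of Cox8a in control mice was lost (-0.25, adjusted p = 0.203), with the length trend removed Cox8a changed by 0.019 and 0.0044 (adjusted p = 0.926 and 0.981), and without M45 its call in control mice was lost (adjusted p = 0.064), as was that of Cox6a1 (adjusted p = 0.071). Cox7a1 fell (-3.46 and -3.66 on the log2 scale) and so did its partner Cox7a2 (-2.20 and -2.73), beside medians of -2.40 and -2.64 over the members.

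Log2 ratios of the counts of 2 isoforms in the same library do not depend on the scaling between libraries (0.5 was added to each count). The ratio of Cox6a2 to Cox6a1 was 3.62 ± 0.11 (SD, n = 5) in naive and 0.88 ± 1.36 (SD, n = 6) in MI hearts. The difference of -2.73 (SE 0.56) had an exact two-sided permutation p of 0.0043, the smallest that 5 against 6 libraries allow, and 0.0061 after Benjamini-Hochberg adjustment over the 7 pairs tested. The ratio of Cox8b to Cox8a went from 3.02 ± 0.09 to 0.33 ± 1.199 and that of Cox7a1 to Cox7a2 from 0.38 ± 0.21 to -0.99 ± 0.78, each with the same exact permutation p. Lower values were seen in 6 of 6 MI libraries for each of the 3 pairs. Per kilobase, Cox8a made up 7.04% to 8.23% of the Cox8 pair in naive and 18.6% to 68.5% in MI hearts, and Cox6a1 made up 8.28% to 9.84% of its pair before and 17.1% to 75.4% after MI. M40 had the highest share of the ubiquitous form in each pair, and M35 had the lowest of the MI libraries in the Cox6a and Cox8 pairs.

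The remaining pairs differed. The ratio of Cox4i1 to the lung-enriched and hypoxia-responsive isoform Cox4i2 changed by -0.62 (SE 0.16, exact permutation p = 0.013, adjusted p = 0.015), with 1 MI library (M38) inside the naive range. The ratio of Cox6b1 to Cox6b2 went from 9.58 ± 0.50 to 6.59 ± 0.82 and that of Atp5g2 to Atp5g3 from -11.67 ± 0.60 to -8.79 ± 0.80, each at the smallest exact permutation p, with Cox6b2 and Atp5g2 at very low counts. Atp5g1 and Atp5g3, which encode the same mature c-ring subunit, kept a ratio whose difference of -0.18 (SE 0.27) was within the spread (exact permutation p = 0.537, adjusted p = 0.537). Between the genotypes after MI, no pair could pass with 3 against 3 libraries, for which the smallest exact permutation p is 0.1, and the lowest p seen was 0.2.

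**Figure D3:**
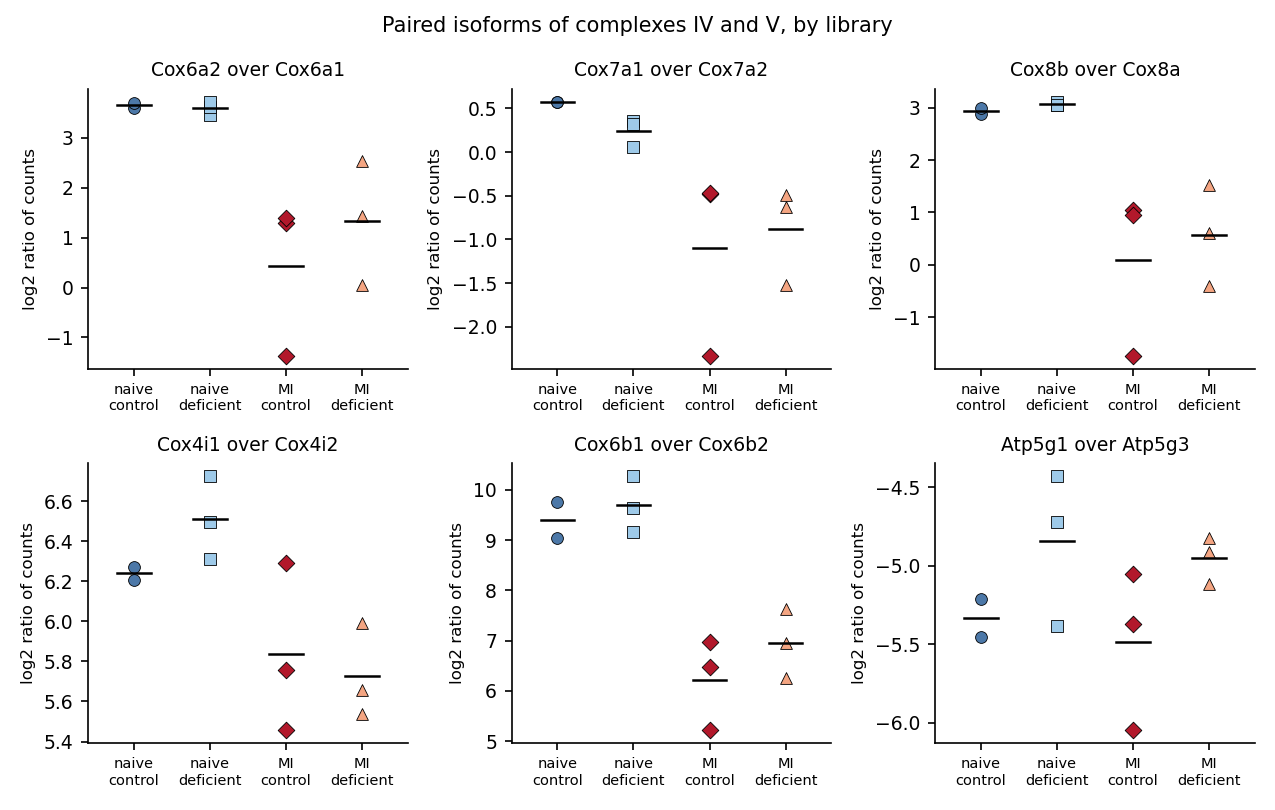
Log2 ratio of the counts of 2 isoforms in each library for 6 pairs of complexes IV and V, with 1 point per library and a bar at the mean of each of the 4 groups; the vertical axes differ between panels. In the 3 upper panels all 6 MI libraries lie below all 5 naive libraries, with M40 lowest, whereas the Atp5g1 to Atp5g3 ratios overlap.

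Contractile genes of cardiomyocytes were lower in the same libraries. The 12 contractile genes, among them Myh6, Tnnt2 and Ttn, summed to 81839 to 113801 CPM in naive and to 3022 to 29781 CPM in MI hearts, and all 12 were called lower in control mice (median log2 fold change -3.06) and 11 of 12 in Vegfc-deficient mice (median -2.40), where Ttn, the giant sarcomere spring, changed by -0.98 (adjusted p = 0.189). By comparison, 24.1% of all genes tested were called lower in control and 27.7% in Vegfc-deficient mice. M40 and M900 were lowest and M35 and M38 highest among the MI libraries for both the contractile and the subunit genes. In bulk tissue, fewer cardiomyocytes and less of an mRNA per cardiomyocyte cannot be told apart. The ratio of the summed members to the summed contractile genes was 1.198 and 1.206 in naive controls and 1.29 to 1.34 in naive Vegfc-deficient hearts. After MI it was 1.98 (M006), 1.66 (M38) and 3.98 (M40) in control mice and 0.954 (M35), 1.87 (M900) and 1.51 (M913) in Vegfc-deficient mice, so 5 of 6 MI libraries were above every naive library and M35 was below them.

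Fibroblast markers moved with MI as well. Their sum was 4786 to 6674 CPM in naive and 29886 to 47496 CPM in MI hearts, 5 of 7 were called higher in control and 6 of 7 in Vegfc-deficient mice. Of the 7 macrophage markers 5 were called higher in each genotype, with sums of 1289 to 1966 CPM before and 1802 to 4669 CPM after MI. Among all 14779 genes tested, 3882 were called higher in control and 4432 in Vegfc-deficient mice. The part of these changes in cell content in the levels of the subunits was not tested.

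**Figure D4:**
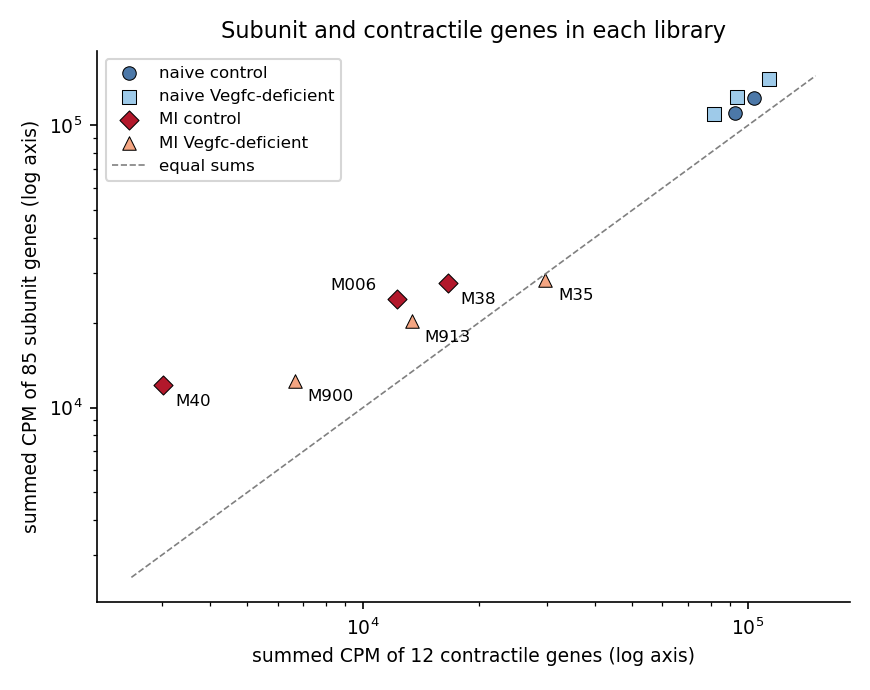
Summed CPM of the 85 subunit genes against summed CPM of 12 contractile genes of cardiomyocytes, 1 point per library, both on log axes, with a dashed line where the sums are equal. The MI libraries lie at 3022 to 29781 CPM on the horizontal axis, below all naive libraries, and all but M35 lie above the dashed line.

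Most genes that build the complexes also fell. Of 46 assembly factors, 43 were tested, and 40 were called lower in control mice (median log2 fold change -1.36) and 40 in Vegfc-deficient mice (median -1.61), with 0 called higher. Over all genes tested, 24.1% were called lower in control and 27.7% in Vegfc-deficient mice. Lyrm7, which helps insert the Rieske protein, fell most (-2.61 and -2.68), Ndufaf1, a complex I assembly factor, fell as well (-2.16 and -1.90), and the haem A synthase Cox15 changed by -0.39 (adjusted p = 0.075) and -0.11 (adjusted p = 0.543). Of 12 relatives of the subunits outside the naming rule, 11 were called lower in each genotype, among them Etfdh, which feeds electrons from fatty acid oxidation to ubiquinone (-2.94 and -2.57). Ndufa4l2, the hypoxia-induced relative of Ndufa4, changed by -0.08 (adjusted p = 0.840) and -0.00 (adjusted p = 0.994).

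Regulators of these genes did not move as one. Of 14, 10 were called lower and 0 higher in control mice, and 11 lower and 2 higher in Vegfc-deficient mice. The shares of all genes called lower were 24.1% and 27.7%, and 3882 and 4432 of 14779 genes were called higher. Ppargc1a, the coactivator of mitochondrial biogenesis, was at 30.2 to 47.0 CPM in naive and at 1.87 to 13.8 CPM in MI hearts and fell in both genotypes (log2 fold changes -2.77 and -2.40). Esrra, an oestrogen-related receptor, fell (-1.71 and -2.17), and so did the mitochondrial transcription factor Tfam (-0.94 and -1.33). By contrast Nrf1 was at 19.4 to 24.7 CPM in naive and 19.7 to 26.0 CPM in MI hearts (log2 fold changes 0.10 and 0.17, adjusted p = 0.592 and 0.298), so the ranges overlapped. Gabpa fell in Vegfc-deficient mice (-0.37, adjusted p = 0.0085) and changed by -0.22 in control mice (adjusted p = 0.115), and the 2 called higher in Vegfc-deficient mice were Yy1 (0.29) and Pprc1 (0.99).

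Between Vegfc-deficient and control hearts after MI, edgeR called 0 members, where 0.0% of all genes were called. DESeq2's Wald test called 62 genes and limma-voom 0 genes over the whole table, with 0 members in each. An unadjusted p under 0.05 was seen for 3 members and for 1173 genes. The median log2 fold change of the members was -0.10, with 62 lower and 22 higher in Vegfc-deficient hearts, beside -0.01 over all genes. The sign of this median depended on single mice: it was 0.01 without M006, 0.11 without M38 and 0.16 without M900, and -0.41 without M35.

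The 5 members with the smallest unadjusted p were Cox8a, Cox6b2, Cox6a1, Ndufa6 and Atp5g2. Cox8a differed by -0.46 (SE 0.16, adjusted p = 0.584), Cox6b2 by -0.79 (SE 0.33, adjusted p = 0.608) and Cox6a1 by -0.34 (SE 0.14, adjusted p = 0.610). Ndufa6 differed by -0.56 (SE 0.29, adjusted p = 0.657) and Atp5g2 by -0.58 (SE 0.32, adjusted p = 0.664). All failed the correction. The groups did not overlap for 4 members, all lower (Cox8a, Cox6b2, Cox6a1 and Atp5g2), which is 4.76% of the members beside 12.1% of all genes. The 12 contractile genes had a median of 0.68 between the same groups, with 0 called.

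The difference between the MI groups went with transcript length. Members are short, with a median of 809 bases beside 2951 bases over all genes tested. The 50 tested members under 1000 bases showed a median of -0.19 (log2), with 44 lower, and the 34 longer members one of -0.01, with 18 lower. All 951 tested genes under 1000 bases had a median of -0.30, so the short members shared the direction of short genes in general. Across the 84 members Spearman's rho between log2 fold change and length was 0.51, a description across genes that share libraries. With the trend on length removed from each library, the members' median was 0.16, with 66 of 84 higher in Vegfc-deficient hearts. The short members then had a median of 0.16 and the long ones one of 0.15. The part of transcript length in the difference was not tested. Removing the trend left no member called.

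**Figure D5:**
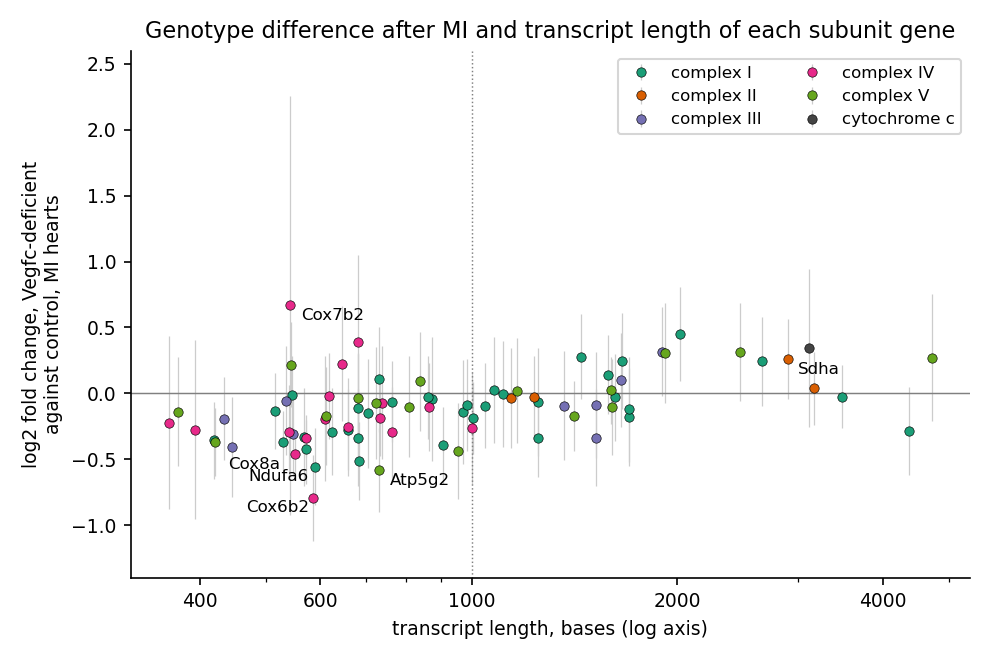
Log2 fold change of each tested member between Vegfc-deficient and control hearts after MI against transcript length in bases (log axis), coloured by complex, with standard errors as grey lines and a dotted line at 1000 bases. Of 50 members left of the line 44 lie below 0, against 18 of 34 to its right, and none was called.

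Between the naive genotypes edgeR also called 0 members, where 0.0% of all genes were called. DESeq2 called 14 genes and limma-voom 6, with 0 members in each, and an unadjusted p under 0.05 was seen for 1 member and for 499 genes. The members' median log2 fold change was 0.17, with 65 of 84 higher in the Vegfc-deficient hearts, and 0.26 once M149, labelled as naive Vegfc-deficient, was left out. Without M149, edgeR called 17 genes, of which 0 were members. All tested genes under 1000 bases had a median of 0.17, and of 0.02 with the length trend removed. With that trend removed the members' median was 0.03, with 46 of 84 higher. Leaving out each of the 11 libraries in turn, without that removal, gave medians of 0.04 to 0.27 for the members. The groups did not overlap for 16 members, or 19.05%, beside 22.4% of all genes. The 3 members with the smallest unadjusted p were Atp5g2 (1.09, SE 0.41), Cox7c (0.77, SE 0.41) and Ndufs5 (0.73, SE 0.46), each with an adjusted p of 1.0 and each sharing 31.1% or more of its 50-base stretches with another gene.

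The change with MI was not shown to differ between genotypes. The interaction of MI and genotype was called for 0 members, where 0.0% of all genes were called by edgeR. DESeq2 called 58 genes and limma-voom 0, with 0 members in each, and an unadjusted p under 0.05 was seen for 3 members and 1226 genes. The members' median interaction was -0.28 on the log2 scale, with 64 of 84 below 0, and it was -0.33 without M149, 0.01 without M900 and 0.09 with the length trend removed. Atp5g2 had the largest interaction (-1.67, SE 0.52, adjusted p = 0.543). It was at 0.624 and 0.453 CPM in naive controls, 1.1304, 0.981 and 1.25 CPM in MI controls, 1.18, 1.33 and 0.977 CPM in naive Vegfc-deficient and 0.823, 0.755 and 0.663 CPM in MI Vegfc-deficient hearts, on 5 to 34 counts a library.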

How the data were processed

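Left ventricle of 11 mice, 1 library each, was sequenced as stranded mRNA. The authors deposited raw gene counts, made per the labels with cutadapt 1.13, STAR (version not given), HTSeq 0.6.1p1 and the mm10 build; the submitters' notes also name DESeq2 1.14.1. Total counts were 10824989 to 26782728 a library. Here the counts were scaled by TMM and tested with edgeR 4.0.16 (quasi-likelihood, R 4.3.3) in 1 fit of all 4 groups over the 14779 of 25006 genes that passed edgeR's expression filter, with Benjamini-Hochberg adjustment and a threshold of 0.05. Of the 85 members 84 were tested; Cox8c had 0 counts. DESeq2 1.42.0 and limma 3.58.1 were alternatives, as were other scalings and filters, removal of length or GC trends, and leaving out each library. Isoform ratios were compared by exact permutation over libraries. Lengths, positions and shared 50-base stretches came from GENCODE M21 on GRCm38, and promoters from RefSeq.

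The members, gene lists and tests were chosen with earlier results of these data known. Genes named were the isoform pairs with Cox8c, Cox7b2 and Ndufa4, the catalytic or redox subunits, the largest and smallest change with MI per complex in control mice, and the 5 (MI) and 3 (naive) members with the smallest unadjusted p between genotypes; 1 gene that the rule names is not reported here. Genes named from the assembly, regulator and relative lists, and the promoters shown, were picked with their values in view. The fits were checked on simulated counts. P-values measure the spread between mice.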

Additional observations from a re-analysis of the deposited data

Results flagged for a closer look

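Atp5g2, one of the genes for the c-ring subunit of ATP synthase, moved in opposite directions in both pairs of comparisons. Its log2 fold change with MI was 1.04 in control mice and -0.63 in Vegfc-deficient mice, and its genotype difference was 1.09 in naive and -0.58 in MI hearts. The difference between these effects was -1.67 (SE 0.52, adjusted p = 0.543 by edgeR's quasi-likelihood test), which failed the correction. The gene had 5 to 34 counts a library, and 87.4% of its 50-base stretches occurred in another gene.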

How the results depend on the processing

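The number of members called and the members' median with MI kept their direction under every alternative run. With only the 54 tested members that share under 10% of their 50-base stretches, a choice made after seeing the data, 53 were called in each genotype, fewer because fewer members were counted. The median in Vegfc-deficient mice moved from -2.64 to -2.13 with library totals alone and to -1.83 with the length trend removed. In control mice the median moved from -2.40 to -1.97 and to -1.99 in the same order. Removing the length trend turned the sign of the members' median between genotypes after MI (from -0.10 to 0.16). The members' median interaction turned too (from -0.28 to 0.09), as did that of complex IV (0.14). With MI, signs turned for Atp5g2 (0.43) and Atp5l (0.54) in Vegfc-deficient mice and for Cox7c in control mice (0.33). Cox7c in control mice also turned with library totals alone (0.068). Cox6a1 turned in control (0.073) and Vegfc-deficient mice (0.31) and between genotypes after MI (0.018). Cox8a turned in control (0.019) and Vegfc-deficient mice (0.0044). The cause was not tested. Cox6b2 was called higher with the length trend removed (1.42 and 1.53) and, in control mice, with library totals alone (1.17), and Atp5g2 in control mice with both (1.64 and 1.48) and with limma-voom (0.98). Atp5l was called lower in control mice by DESeq2 (-0.88) and limma-voom (-0.86) and in Vegfc-deficient mice by both (-0.82 and -1.02). Leaving out each library in turn, the members' median ran from -2.72 to -2.13 in control and from -2.87 to -2.41 in Vegfc-deficient mice, from -0.41 to 0.16 between genotypes after MI and from -0.60 to 0.01 for the interaction. Library totals alone moved the median of all genes by 0.45 in control and 0.50 in Vegfc-deficient mice; relative to all genes the members' median was then -2.54 and -2.72. No paired analysis was possible because the groups share no replicate numbers. Members with few counts, such as Atp5g2 and Cox7b2, are limited by depth.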
